A study of Mus musculus with 4 samples.

Results

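The serpin family was followed in liver RNA of fed and fasted mice, wild-type or PPARα-null. Its members were the probe sets annotated with 1 gene symbol of the serpin nomenclature, which is the word Serpin, a letter for the clade and a number. There were 39 such probe sets for 30 genes, of 22690 probe sets on the Affymetrix MOE430A array, which give 12393 genes when each is named singly. A further 3 probe sets listed several genes with a serpin among them and were left out, and 33 of the 63 protein-coding serpin genes of the RefSeq table had no member probe set and were not analysed here.

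All mice were male and 12 to 20 weeks old. Wild-type mice (129Sv, given as 129S1/SvImJ) and PPARα-null mice (129S4/SvJae) were fed and killed when the dark period ended, or fasted for 24 hours from the onset of light, and whole liver RNA of the 5 mice of each group was pooled on 1 array. The null mice lack the receptor in every tissue and come from another substrain than the wild-type mice, so genotype and substrain cannot be told apart. With 1 array a group no difference has a replicate check, no test was run, and all comparisons describe these 4 pools. In whole liver, fewer cells of a type and less RNA per cell cannot be told apart.

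Serpins share a fold with an exposed reactive centre loop. In the inhibitory members the loop is cut by a serine protease as if it were a substrate, the serpin then changes shape, and the protease stays trapped on it. Hepatocytes secrete many clade A, C, D, F and G serpins into plasma, where they restrain coagulation, fibrinolysis, complement and the proteases of inflammatory cells. Some members inhibit nothing and instead carry hormones or help other proteins fold, and most clade B serpins stay inside cells. PPARα is the fatty acid sensing nuclear receptor that governs much of the hepatic response to fasting.

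Mice carry clade A genes as clusters of copies on chromosome 12, and a probe set may read more than 1 copy. The copies of Serpina1, the gene of α1-antitrypsin, were compared over the 250 bases before their annotated starts, with sequences from RefSeq on GRCm38.p6. Over the 10 pairs of the 5 copies from Serpina1a to Serpina1e these windows were 91.4% to 97% identical, with 189 to 250 aligned columns. The stretches that align with the last 120 bases before Serpina1b are shown because the near identity is visible in them, with capitals marking the bases that differ from Serpina1b.
Serpina1a, chr12:103863620-103863734, minus strand: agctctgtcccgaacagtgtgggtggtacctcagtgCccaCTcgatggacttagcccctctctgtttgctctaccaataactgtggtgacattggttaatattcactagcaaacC
Serpina1b, chr12:103738190-103738309, minus strand: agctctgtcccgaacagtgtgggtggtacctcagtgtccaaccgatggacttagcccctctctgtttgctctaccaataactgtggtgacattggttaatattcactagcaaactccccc
Serpina1c, chr12:103904952-103905071, minus strand: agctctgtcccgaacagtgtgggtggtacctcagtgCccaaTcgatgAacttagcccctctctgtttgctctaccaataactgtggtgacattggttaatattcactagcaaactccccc
Serpina1d, chr12:103773634-103773743, minus strand: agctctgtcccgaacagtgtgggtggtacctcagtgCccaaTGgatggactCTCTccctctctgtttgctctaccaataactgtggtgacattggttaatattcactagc
Serpina1e, chr12:103956950-103957069, minus strand: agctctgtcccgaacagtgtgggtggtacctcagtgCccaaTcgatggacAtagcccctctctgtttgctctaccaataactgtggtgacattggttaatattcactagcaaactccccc

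Against Serpina1b, Serpina1a had 4 substituted bases in this stretch, Serpina1c 3, Serpina1d 7 and Serpina1e 3. The stretch of Serpina1e ends 52 bases before its annotated start. All 5 hold GTTAAT, letters that are part of the sequence HNF1 factors bind and that were picked after the stretches had been read. On either strand GTTAAT is in 6.43% of all 32851 promoter windows of 250 bases. The 5 stretches are nearly identical, so they are not 5 separate occurrences to set against that share. Among the 26 member genes with a window 4 hold it, namely Serpina1b, Serpina1c, Serpinb8 and Serpini2. Promoters are not what the array's probes detect, and the transcripts of the copies were not compared here.

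The Serpina3 cluster, which corresponds to the human gene of α1-antichymotrypsin, is more divergent. Among its 8 copies with a window, 15 of 28 pairs aligned over at least 100 columns, with identities from 63% to 92.7%. The closest of these pairs was Serpina3n and Serpina3c. The 120 bases before the annotated gene start of Serpina3n and the matching stretch of Serpina3c are shown, with the 7 bases of Serpina3c that differ in capitals.
Serpina3n, chr12:104406526-104406645, plus strand: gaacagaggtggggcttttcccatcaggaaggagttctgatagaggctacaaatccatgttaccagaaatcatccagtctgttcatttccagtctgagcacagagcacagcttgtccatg
Serpina3c, chr12:104153932-104154051, minus strand: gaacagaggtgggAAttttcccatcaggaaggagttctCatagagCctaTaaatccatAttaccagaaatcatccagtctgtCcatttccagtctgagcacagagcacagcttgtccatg

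Serpina12 lies in the same cluster and had the widest range over the 4 arrays. Its window did not align with those of the Serpina1 copies or of Serpina3n over 100 columns or more in any of 6 pairs. Its last 120 bases before the start are shown for contrast, all in lower case since nothing is marked.
Serpina12, chr12:104044444-104044563, minus strand: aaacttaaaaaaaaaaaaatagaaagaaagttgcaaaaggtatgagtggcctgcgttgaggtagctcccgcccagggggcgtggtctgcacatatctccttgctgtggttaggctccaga

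The letters TTCNNNGAA, to which STAT factors bind, were searched in the 250 base windows on both strands. They are in the windows of 3 of the 26 member genes that have one, Serpinb2, Serpinb6a and Serpinb9c, and in 7.02% of all windows. The direct repeat of AGGTCA with 1 base between, which PPAR and RXR bind together, was in 0 of these 26 genes and in 0.0335% of all windows. A sequence this rare would seldom be met in 26 windows, so the 0 says little about the family. Serpina6, Serpina10, Serping1 and Serpinb1a had no window and were not searched for either sequence.

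Intensities are given in GCRMA units on a linear scale, and values below 16 units were set to that floor for log2 differences. Of the 30 serpin genes 19 were measured, counting any gene above the floor on 1 array or more, and 11 were at the floor throughout. In clade A 7 of 8 genes were measured and in clade B 6 of 14. The single genes of clades C, D, G and H and both genes of clade F were measured. The targeted gene Ppara read 583 units in fed and 755 units in fasted wild-type liver, and 104 and 16.3 units in the null pools, in the direction of the labels. The hepatocyte markers Alb, Ttr and Apoa1 lay between 11968 and 27923 units, and all 9 hepatocyte markers with a probe set were measured.

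**Figure D1:**
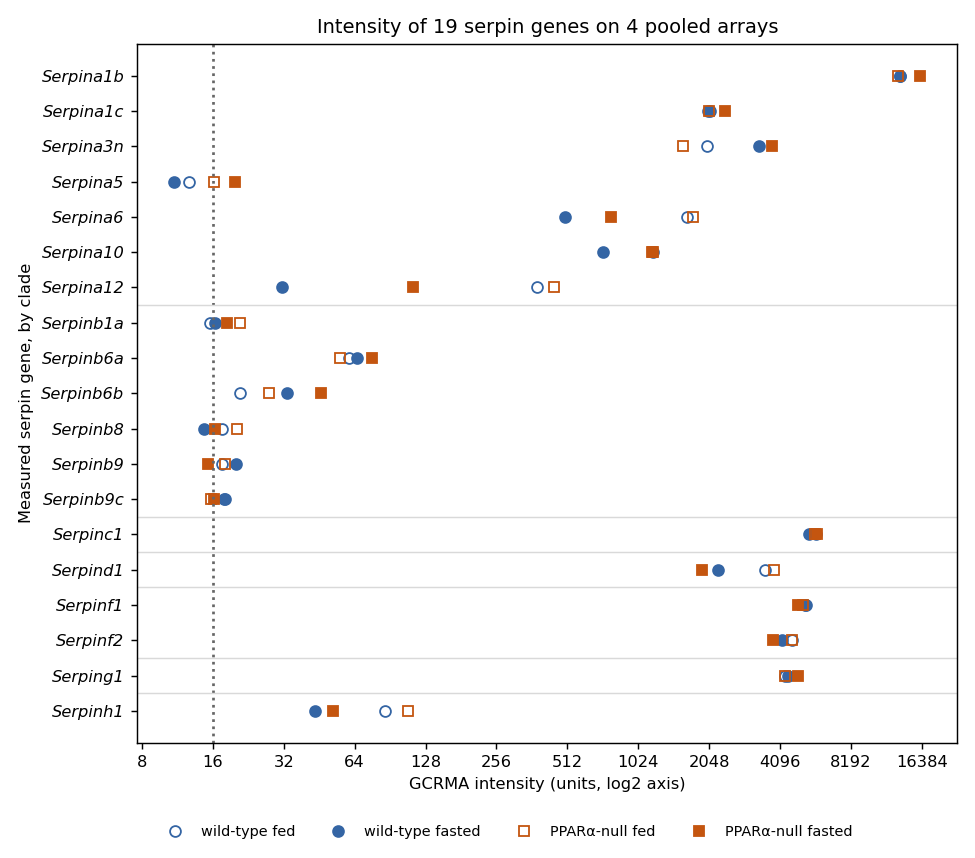
GCRMA intensity on a log2 axis of the 19 measured serpin genes, ordered by clade, with a point for each pool. Circles are wild-type and squares PPARα-null, fed pools are open and fasted pools filled, and dots mark the floor at 16 units. The points of Serpina12 run from 31.4 to 452 units, whereas those of Serpinc1 lie between 5449 and 5910 units.

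Of the 19 measured serpins 7 passed 1.5-fold in 1 comparison or more and 12 in none. The share of all genes that did so in any comparison was not counted. Among the 12, Serpina5, Serpinb1a, Serpinb8, Serpinb9 and Serpinb9c read at most 20.9 units. With the floor at 16 units they could not pass 1.5-fold, so their lack of a call does not show an even level. Most differences past that threshold were between fed and fasted pools. In wild-type liver 2 of 19 serpin genes were at least 1.5-fold higher after fasting and 5 were at least 1.5-fold lower, while 8.20% of all 6947 measured genes were higher and 8.29% lower. In PPARα-null liver 2 were higher and 4 lower after fasting, against 12.4% of all genes higher and 18.0% lower. Between the fasted genotypes 3 serpins were higher in the null pool and 0 lower, against 8.58% of all genes higher and 13.6% lower. Between the fed genotypes 0 were higher and 0 lower, against 2.38% and 2.12% of all genes. Among all genes called, 61.4% were lower between the fasted genotypes and 59.1% with fasting in null liver. These shares became 44.9% and 47.5% when the arrays were centred on bright probe sets, where 4 serpins were higher and 0 lower between the fasted genotypes and 3 higher and 4 lower with fasting in null liver. With so few members, 1 gene is worth several percent of the family.

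The family median lay near that of all genes except between the fasted genotypes, where it was higher. It was -0.02 for fasting in wild-type and 0.01 for fasting in null liver on the log2 scale, where the medians of all measured genes were 0 and -0.01. It was 0.18 for the fasted and -0.004 for the fed comparison of genotypes, where the medians of all genes were -0.01 and 0. Differences read by several probe sets of 1 gene had an SD about that gene's mean of 0.21 to 0.46 on the log2 scale, depending on the comparison. These probe sets were read on the same arrays. The scatter therefore holds no variation between mice, pools or arrays and is not the full error of a difference.

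**Figure D2:**
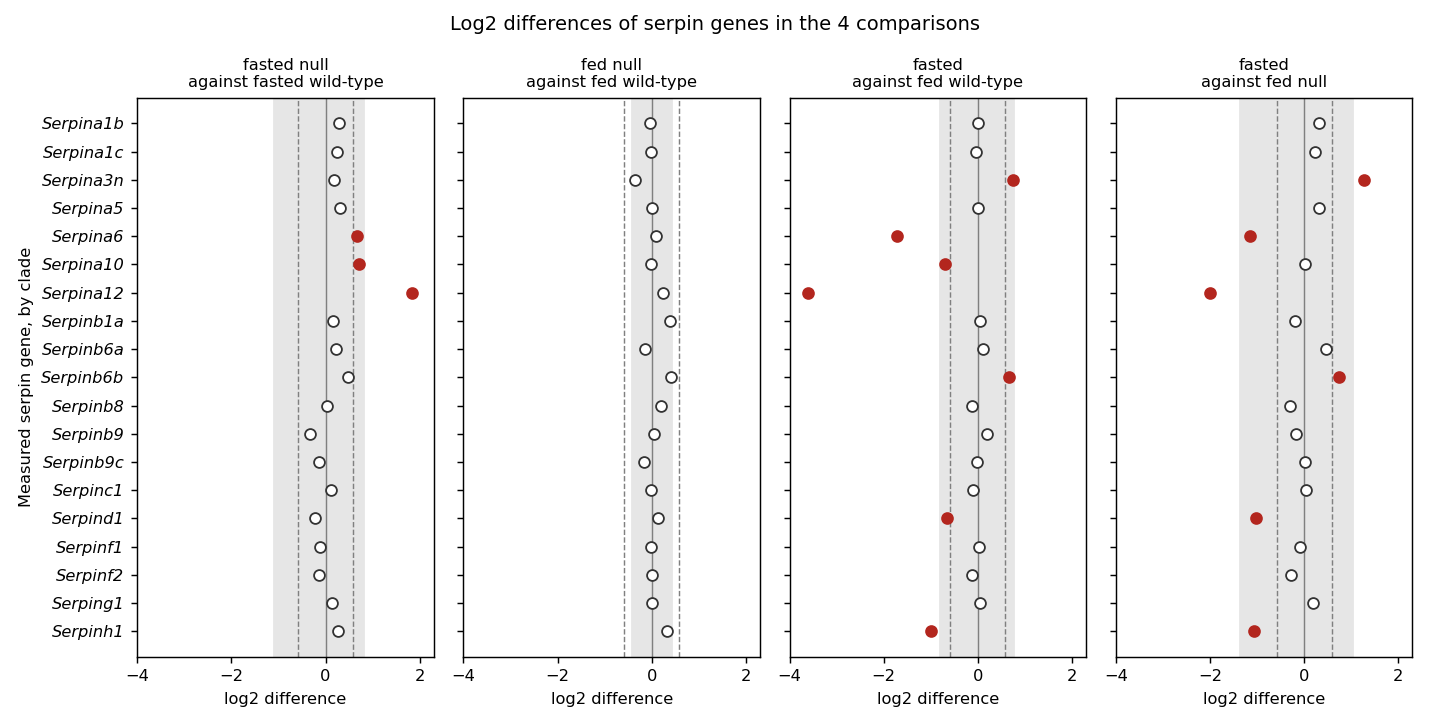
Log2 difference of each measured serpin gene in each of the 4 comparisons of pools. Filled red points are at least 1.5-fold apart (dashed lines), and the grey band spans the 5th to 95th percentile of all 6947 measured genes. Serpina12 lies outside the band in 3 of the 4 panels, at 1.84, -3.60 and -2.00.

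Serpina12 encodes vaspin, a secreted serpin known as an adipokine that inhibits a kallikrein. It read 382 units in fed wild-type, 31.4 units in fasted wild-type, 452 units in fed null and 113 units in fasted null liver. Both fed pools were above both fasted pools, and the fasted wild-type pool was the lowest. Fasting was accompanied by a 12.2-fold lower level in wild-type and a 4.01-fold lower level in null liver. In wild-type liver 11 of the 6947 measured genes had a more negative difference. The fasted null pool was 3.59-fold above the fasted wild-type pool, whereas the fed pools differed by 1.18-fold. The log2 difference of fasting was less negative by 1.60 in null than in wild-type liver, which was not tested. The second probe set of Serpina12 stayed below the floor, with 8.44 to 13.4 units, so the pattern rests on 1 probe set. With a floor at 64 units the log2 differences were -2.58 for fasting in wild-type and 0.82 for the fasted genotypes, and with the mean of both probe sets they were -1.90 and 1.04, and -1.21 for fasting in null liver.

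Markers of other tissues were set beside this gene. The adipose genes Adipoq and Lep were at the floor on all 4 arrays. Fabp4, another gene of the adipose list, was measured. It read 43.0 units in fed wild-type, 39.7 units in fasted wild-type, 58.2 units in fed null and 77.8 units in fasted null liver. The summed level of exocrine pancreas markers was taken over the 6 measured of 8 with a probe set. It was 666 and 946 units in the fed wild-type and null pools and 147 and 156 units in the fasted ones. Most of this sum was Cela1, the gene of an elastase, with 552 and 745 units fed and 53.9 and 55.0 units fasted. The measured markers besides Cela1 did not exceed 53.3 units on any array, and Cpa1 and Clps were at the floor throughout. Of the 6 measured pancreas markers 1 was at least 1.5-fold lower after fasting in wild-type and 5 in null liver. The shares of all genes that were lower were 8.29% and 18.0%. The part of the adipose and pancreas markers in the difference of Serpina12 was not tested. Serpini2, a serpin known from the exocrine pancreas, did not exceed 8.82 units on any array.

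Serpina6 encodes corticosteroid-binding globulin, the plasma carrier of glucocorticoids, which is not an inhibitor. It read 1652 units in fed wild-type, 499 units in fasted wild-type, 1756 units in fed null and 788 units in fasted null liver. The order of the 4 pools was that of Serpina12, with both fed pools on top. The fasted pool was 3.31-fold lower in wild-type and 2.23-fold lower in null liver. The fasted null pool was 1.58-fold above the fasted wild-type pool, just past the threshold, and the fed pools differed by 1.06-fold. The list of hormone carriers, precursors and receptors fixed for comparison held 6 measured genes. With fasting in wild-type 0 passed 1.5-fold, against 8.20% of all genes higher and 8.29% lower. In null liver 0 passed it, against 12.4% higher and 18.0% lower. Nr3c1 of this list, the gene of the glucocorticoid receptor, had log2 differences of -0.38 and -0.22 with fasting. Hsd11b1, whose enzyme regenerates active glucocorticoid, had -0.35 and -0.20. Agt, which encodes the precursor of angiotensin and is itself a serpin by structure under another symbol, had -0.04 and 0.03. Dio1, the gene of a deiodinase that activates thyroid hormone, was the member of this list that passed 1.5-fold between genotypes, with log2 differences of -0.91 fasted and -1.10 fed.

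Serpina10 encodes the protein Z-dependent protease inhibitor, which blocks activated factor X. It read 1182 units in fed wild-type, 724 units in fasted wild-type, 1175 units in fed null and 1187 units in fasted null liver. The fasted wild-type pool stood apart from the other three, which lay within 1.01-fold of each other. Fasting went with a 1.63-fold lower level in wild-type, a log2 difference of -0.71, and with 0.01 in null liver. The 2 fasted pools differed by 1.64-fold. Its cofactor gene Proz, by contrast, had log2 differences with fasting of -0.32 in wild-type and -0.68 in null liver, the second past the threshold. The probe set of Serpina10 carries a suffix that Affymetrix gives to sets shared by more than 1 transcript.

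**Figure D3:**
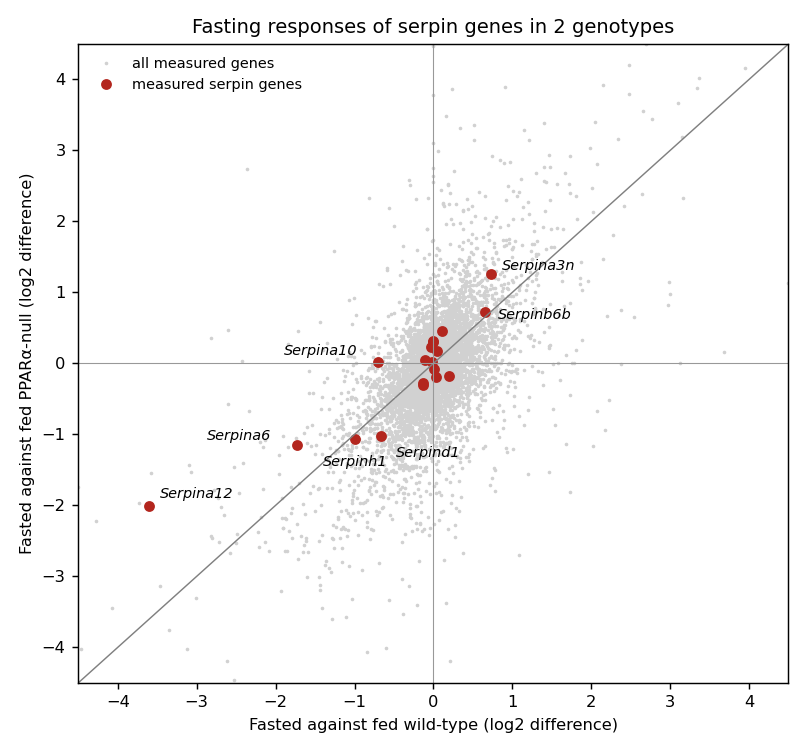
Log2 difference of fasting in wild-type (horizontal axis) and in PPARα-null liver (vertical axis), which share no array, for the 19 measured serpin genes (red) and all measured genes (grey, 25 of them outside the axes). The diagonal marks equal responses. Serpina12, Serpina6 and Serpina10 lie above it, while Serpinh1 lies close to it at -0.99 and -1.06.

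Serpina3n encodes a secreted inhibitor related to α1-antichymotrypsin that is known to respond to glucocorticoids and inflammatory cytokines. It read 2011 units in fed wild-type, 3346 units in fasted wild-type, 1580.5 units in fed null and 3797 units in fasted null liver. Both fasted pools were above both fed pools, the reverse of Serpina12 and Serpina6. It was 1.66-fold higher with fasting in wild-type and 2.40-fold higher in null liver. Between the genotypes it had log2 differences of 0.18 fasted and -0.35 fed, both short of the threshold. Serpina3a, the other clade A gene of this cluster with a member probe set, did not exceed 8.60 units. Whether the Serpina3n probe set also reads other Serpina3 transcripts was not tested.

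The genes of IL-6 and STAT3 signalling, a pathway that drives acute phase serpins, were described alongside. Of 11 measured genes 5 were at least 1.5-fold higher with fasting in wild-type and 0 lower, with a median of 0.49. In null liver the median was 1.54, 7 genes were higher and 1 was lower. Among all genes 8.20% were higher and 8.29% lower with fasting in wild-type, and 12.4% and 18.0% in null liver. Cebpd and Cebpb, which encode transcription factors of acute phase genes, had log2 differences of 2.42 and 1.28 with fasting in wild-type and 2.22 and 1.86 in null liver. Cebpd read 12.2 units in fed wild-type liver, below the floor, so its 2.42 is a lower bound. Socs3, the feedback inhibitor of the pathway, had -0.21 in wild-type and 1.60 in null liver, and Stat3 0.49 and 1.82. Whether these genes had a part in the level of Serpina3n was not tested.

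The α1-antitrypsin genes differed little between pools. Serpina1b read 13295 units in fed wild-type, 13216 units in fasted wild-type, 13021 units in fed null and 16129 units in fasted null liver. The first 3 pools lay close together and the fasted null pool was the highest, with a 1.22-fold difference from fasted wild-type. A second probe set of Serpina1b read 11445, 11386, 10502 and 11646 units in the same order, and its log2 difference between the fasted genotypes was 0.03 in place of 0.29. Serpina1c read 2069 units in fed wild-type, 2023 units in fasted wild-type, 2054 units in fed null and 2402 units in fasted null liver, and the fasted null pool was again the highest, 1.19-fold above fasted wild-type. Both probe sets of Serpina1b carry a suffix for possible matches to several transcripts. The level of a single Serpina1 gene is therefore uncertain. Serpina5, which encodes protein C inhibitor, was near the floor, with at most 19.9 units.

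Serpind1 encodes heparin cofactor II, an inhibitor of thrombin. It read 3525 units in fed wild-type, 2233 units in fasted wild-type, 3873 units in fed null and 1914 units in fasted null liver. The fed pools were above the fasted pools in both genotypes, by 1.58-fold in wild-type and 2.02-fold in null liver. The genotypes differed by 1.17-fold when fasted and by 1.10-fold when fed. Serpinc1, the gene of antithrombin, which inhibits the same protease thrombin, read 5841 units in fed wild-type, 5449 units in fasted wild-type, 5740 units in fed null and 5910 units in fasted null liver. All 4 values of Serpinc1 lay within 1.08-fold.

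The clade F and G genes differed by at most 1.21-fold between any pools. Serpinf1 encodes pigment epithelium-derived factor, an antiangiogenic protein without inhibitory activity. It read 5216 units in fed wild-type, 5260.0 units in fasted wild-type, 5152 units in fed null and 4871 units in fasted null liver, within 1.08-fold, and its second probe set ranged from 2591 to 2794 units. Serpinf2, the gene of α2-antiplasmin, the main plasma inhibitor of plasmin, read 4610 units in fed wild-type, 4195 units in fasted wild-type, 4596 units in fed null and 3813 units in fasted null liver, within 1.21-fold. Serping1 encodes the C1 inhibitor of complement and contact proteases. It read 4312 units in fed wild-type, 4439 units in fasted wild-type, 4298 units in fed null and 4869 units in fasted null liver, within 1.13-fold. These 3 genes and Serpinc1 were all short of 1.5-fold in the 4 comparisons.

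Most genes of the proteases that serpins act on stayed within 1.5-fold, as did most of all measured genes. Of 18 measured protease genes 1 was at least 1.5-fold higher and 2 lower with fasting in wild-type. Of all genes 8.20% were higher and 8.29% lower there. In null liver 2 were higher and 2 lower, against 12.4% and 18.0% of all genes. Between the fasted genotypes 2 were higher and 1 lower in the null pool, against 8.58% and 13.6%. Between the fed genotypes 0 passed the threshold, against 2.38% of all genes higher and 2.12% lower. F2, the gene of prothrombin, ranged from 5079 to 5227 units. F11, the gene of coagulation factor XI, read 1493 units in fed wild-type, 493 units in fasted wild-type, 1402 units in fed null and 756 units in fasted null liver, with both fed pools above both fasted pools as for Serpina6. Klkb1, the gene of plasma prekallikrein, had its lowest level in the fasted null pool, at 729 units against 1751 units in fasted wild-type. Ctsl, a cysteine protease gene, had a log2 difference with fasting of 0.54 in wild-type and 1.29 in null liver. The genes of the leukocyte proteases Elane, Ctsg, Prtn3 and Gzmb were at the floor throughout.

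Of the 10 measured genes of serpin binding partners and clearance, 0 were at least 1.5-fold higher and 1 lower with fasting in wild-type. Among all genes 8.20% were higher and 8.29% lower there. In null liver 1 of the 10 was higher and 3 were lower, against 12.4% and 18.0% of all genes. Lrp1, the endocytic receptor that clears serpin-protease complexes, read 687 units in fed wild-type, 500.5 units in fasted wild-type, 563 units in fed null and 229 units in fasted null liver, with the fasted null pool the lowest. Sdc4, which encodes a heparan sulfate proteoglycan, was highest there, at 7531 units against 4194 units in fasted wild-type. Vtn, the plasma partner that stabilizes the plasminogen activator inhibitor, ranged from 4406 to 4653 units.

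Serpinh1 encodes HSP47, the collagen chaperone of the endoplasmic reticulum, which inhibits no protease. It read 86.3 units in fed wild-type, 43.4 units in fasted wild-type, 108 units in fed null and 51.7 units in fasted null liver. The fed pools were 1.99-fold above the fasted pool in wild-type and 2.09-fold in null liver. The second probe set went the same way without reaching the threshold, with log2 differences of -0.33 and -0.22. With a floor at 64 units the difference in wild-type liver was -0.43, so the call rests on low values there. Of 13 measured genes of collagens and their processing, 0 were higher and 2 lower with fasting in wild-type and 0 higher and 3 lower in null liver. Among all genes 8.20% were higher and 8.29% lower in wild-type, and 12.4% and 18.0% in null liver. Col3a1, a client of this chaperone, read 47.2 and 14.4 units in fed and fasted wild-type liver and 123 and 34.9 units in fed and fasted null liver, and so was also lower in both fasted pools. The summed level of the 8 measured of 11 stellate cell and fibroblast markers was 1692 and 1666 units in fed and fasted wild-type liver and 2179 and 2916 units in the null pools, with Des, Lrat and Col1a1 at the floor. Most of it was Dcn, with 1061, 1175, 1218 and 1876 units in fed and fasted wild-type and fed and fasted null liver. Of the 8 markers 0 were higher and 1 lower with fasting in wild-type, and 1 was higher and 2 lower in null liver. The shares of all genes are those given for the collagens. Those lower in null liver were Col3a1, at -1.82 on the log2 scale, and Pdgfrb, a receptor gene of stellate cells, at -1.42, as for Serpinh1. Dcn was the marker past the threshold in the other direction, at 0.62. Short of the threshold, Vim, Reln, Col1a2 and Acta2 were higher and Lum was lower. The median of the 8 markers with fasting was -0.30 in wild-type and 0.13 in null liver. It thus had the sign of Serpinh1 in wild-type but not in null liver. The part of these cells in the difference of Serpinh1 was not tested.

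The clade B genes were dim. Serpinb6b encodes an intracellular serpin of a mouse copy group whose Serpinb6a member inhibits cathepsin G. It read 20.9 units in fed wild-type, 32.9 units in fasted wild-type, 27.6 units in fed null and 45.9 units in fasted null liver. It was 1.57-fold higher with fasting in wild-type and 1.66-fold higher in null liver, at values not far above the floor. Serpinb6a ranged from 55.2 to 75.8 units and passed the threshold in no comparison. Serpinb8, Serpinb9 and Serpinb9c, of which Serpinb9 encodes an inhibitor of granzyme B, stayed at or below 20.2 units.

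The leukocyte elastase inhibitor gene Serpinb1a gave unlike readings in its 2 probe sets. The brighter one read 15.6 units in fed wild-type, 16.4 units in fasted wild-type, 20.9 units in fed null and 18.4 units in fasted null liver, with no difference past 1.5-fold. The other read 43.8 units in the fed null pool and 7.83 to 10.6 units in the remaining 3 pools, below the floor. With that probe set Serpinb1a would be higher in fed null than in fed wild-type liver by at least 1.45 on the log2 scale. In the fed null pool S100a9 was the measured gene of the 13 neutrophil and lymphocyte markers with a probe set, at 18.5 units, and Elane and Mpo were at the floor.

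The 11 genes at the floor were Serpina3a, the clade B genes Serpinb1b, Serpinb2, Serpinb5, Serpinb6c, Serpinb7, Serpinb9b, Serpinb9g and Serpinb11, and the clade I genes Serpini1 and Serpini2. Serpini1 encodes neuroserpin, known from neurons, Serpinb2 a plasminogen activator inhibitor and Serpinb5 maspin, known from epithelia. The highest value of these genes on any array was 12.95 units, for Serpinb9b. A value below the floor bounds the level and does not show that a transcript was lacking.

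Fasting responses of the 2 genotypes, which come from separate arrays, were set against each other across genes. Over the 19 measured serpins Pearson's r was 0.89 and Spearman's rho 0.75, and over all 6947 measured genes they were 0.59 and 0.53. The correlation is a description across genes, which are not independent replicates, and the point of Serpina12 lies far from the rest. Of the 18 serpins that differed from 0 in both, 10 had the same sign (55.6%), and of the 6426 such genes among all measured 4393 did (68.4%). For the 6 serpins past the threshold in both genotypes the direction was the same, namely higher for Serpina3n and Serpinb6b and lower for Serpina6, Serpina12, Serpind1 and Serpinh1. How often this held for all genes past the threshold in both genotypes was not counted. Kupffer cell and macrophage markers differed between these pools too. With fasting in wild-type 6 of 11 measured markers were at least 1.5-fold lower, against 8.29% of all genes. In null liver 1 was lower and 3 were higher, against 18.0% and 12.4% of all genes. The summed level of these markers was 991 and 594 units in fed and fasted wild-type liver. It was 1030 and 1202 units in fed and fasted null liver, with Cd68 at the floor. The part of these markers in the serpin differences was not tested.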

How the data were processed

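Liver RNA pooled from 5 mice a group was hybridized to 1 Affymetrix MOE430A array for each of 4 groups, and groups were taken from the labels. The sources differ on whether each pool held 4 or 5 mice. The authors deposited linear intensities from GCRMA, a method that subtracts background modelled on probe sequence, applies quantile normalization and summarizes the probes of a set (version 2.20 per the submitters' processing notes). The arrays normalized together are not given in the sources used here, and scanner files were not used. Medians over probe sets other than the 64 controls were 14.4 to 14.6 units.

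Values were converted to log2. For a gene with several probe sets the one with the highest mean on this scale was taken, and values lower than a log2 of 4 (16 units) were raised to it. Following the study's criterion for pooled arrays, differences of 1.5-fold or more were counted. Every serpin gene was accounted for, and the 13 with 128 units or more on an array or past 1.5-fold were described in full. The serpins, the gene lists and the alternatives were chosen with earlier results of these data known. Symbols were checked against RefSeq through gene identifiers for all 39 probe sets, and 0 differed. Promoter windows were aligned pairwise with free end gaps (match 1, mismatch -1, gap opening -3, extension -0.5) in Biopython 1.88. The calculation was tested on simulated data. The number of arrays limits the precision. Python 3.11.15, numpy 2.4.6, pandas 2.3.3, statsmodels 0.14.6 and matplotlib 3.10.9 were used.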

Additional observations from a re-analysis of the deposited data

Results flagged for a closer look

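Serpina10 was the measured serpin gene whose fasting response passed 1.5-fold in one genotype and had the opposite sign in the other. Its log2 difference with fasting was -0.71 in wild-type and 0.01 in PPARα-null liver. The value in null liver is far inside the scatter between probe sets of the same gene, an SD of 0.46 in that comparison, so it has no direction of its own, and the difference between the genotypes was not tested.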

How the results depend on the processing

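Each result was recomputed with 1 choice changed at a time. Of 488 values of single serpin genes under these alternatives 475 moved by less than the scatter between probe sets and 13 moved by more. The sign changed in 12 of the 488, all of them differences of up to 0.14 in size on the log2 scale (among them Serpinf1, Serpinf2 and Serpinb9c between the fasted genotypes with centring), and in 0 of those past 1.5-fold. With a 2-fold threshold 1 serpin was higher between the fasted genotypes (Serpina12), 0 were higher and 2 lower with fasting in wild-type, and 1 was higher with fasting in null liver. With the floor at a log2 of 6, 1 was higher with fasting in wild-type and 1 in null liver, since Serpinb6b lies below it. Without suffixed probe sets 3 were lower with fasting in wild-type and 1 was higher between the fed genotypes. The latter count was also 1 with the mean of all probe sets and with probe sets in place of genes, in each case through Serpinb1a. Centring the arrays on bright probe sets moved the median of all genes between the fasted genotypes from -0.01 to 0.10 and that of the serpins to 0.33, and the serpin median for fasting in null liver to 0.12. Among all genes called between the fasted genotypes the share that was lower went from 61.4% to 44.9%, and Serpinb6b then passed the threshold there at 0.63. No paired analysis was possible because each group has 1 array, and for the same reason leaving out a replicate could not be run. Values near the floor, as in most of clade B, limit what their differences can show.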
